A study of Mus musculus with 12 samples.

Results

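Voltage- and ligand-gated ion channels set how sensory neurons of the trigeminal ganglion, which supply the cornea and the rest of the face, detect stimuli and fire. Sodium channels carry the upstroke of the action potential, potassium channels end it and hold the resting potential, and calcium channels couple it to transmitter release. TRP, Piezo and acid-sensing channels open to heat, chemicals, touch or protons, and glutamate, GABA, glycine, nicotinic and P2X receptors open to transmitters. Many channels also carry auxiliary subunits that change gating or trafficking without forming the pore.

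The genes described here were chosen by symbol: protein-coding genes whose names begin with Kcn, Scn, Cacn, Hcn, Trp, Clcn, Gria, Grik, Grin, Gabr, Glr, Chrn, P2rx, Asic or Piezo, leaving out 13 genes (Hcn2, Kcnc1, Kcng1, Kcnj10, Kcnk18, Kcnn1 to Kcnn4, P2rx3, Scn10a, Scn11a and Trpc6). This gave 238 genes. Of these, 79 could be named in the deposited tables, out of 9964 genes named in all, and 57 passed the filter on low counts. A further 22 were named but lay under the filter, with at most 3.68 CPM in any library (CPM here is the read count scaled to the TMM-adjusted library size), and 5 of them had no read. Another 93 had no counted interval over their exons, 52 shared every interval with other genes, and 14 had under 100 bp of exon counted. Families were set by the prefix of the symbol, so that Cacng3 and Cacng8 count under calcium. By family, 22 potassium, 11 calcium, 7 glutamate, 6 TRP, 4 GABA and glycine, 3 sodium, 2 Piezo and acid-sensing and 1 nicotinic gene were tested, together with Trpc4ap, which binds a TRP channel but is no channel subunit. No chloride, P2X or HCN gene was tested. Of 38 channels well known from sensory ganglia, 13 were tested. Another 18 of them, such as Trpa1 and Piezo1, had no counted interval, 6, such as Scn9a and Trpm8, had shared intervals only, and Kcnk2 lay under the filter.

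Poly(A) RNA was sequenced from trigeminal ganglia of female mice of the C57BL/6J strain, 8 weeks of age, in 12 libraries, 3 in each of 4 groups. The injury_ES group had a keratectomy, the removal of a 1.5 mm disc of corneal epithelium and upper stroma from a randomly chosen eye, and then electrical stimulation through the skin over the orbit (300 µA, 20 Hz, 4 minutes a day for 14 days). The injury group had the keratectomy only and was taken 2 weeks later, the ES_only group had the stimulation without a wound, and the control group was untreated. Wounded mice also received ketamine, xylazine and an analgesic, and stimulated mice isoflurane at each session, so that these agents and the treatments cannot be told apart. Sham stimulation is described by the submitters, but no library is labelled as sham. Neither the number of mice in a library nor the side of the ganglion is labelled, so a p-value here reflects only how far these libraries differ from each other, which may be technical.

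Libraries held 7952798 to 10751547 counts. The deposited intervals follow GRCm39 gene models, but 99.1% of nuclear counts lay on the 36.0% of intervals that cover GRCm38 exons, so each interval was named by its GRCm38 position and not by its deposited gene symbol. Only 12 of the 57 tested genes stand under their own symbol. A tested gene was read from a median of 442 bp of its exons (105 to 12275 bp), a median of 7.93% of its exon length, and 11 genes were read from noncoding exon only. Those exon bases made up a median of 13.8% of the counted interval, and reads in the rest of the interval were counted too. Each value below is therefore that of a stretch of a gene, not of the whole transcript.

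Markers of other cells moved between the groups. The summed level of the 4 sensory neuron markers that could be named out of 13 (Uchl1, Thy1, Nefm and Avil) was 5531 to 10249 CPM in injury_ES, 6301 to 7817 CPM in injury, 7491 to 9128 CPM in ES_only and 4069 to 4656 CPM in control libraries. The sum of 6 of 8 fibroblast and meninges markers was 7101 to 8596 CPM in injury_ES, 24993 to 26020 CPM in injury, 3508 to 8030 CPM in ES_only and 7934 to 8755 CPM in control libraries. The sum of 5 of 8 markers of myelinating Schwann cells was 3412 to 6524 CPM in injury_ES, 6709 to 8512 CPM in injury, 5004 to 5364 CPM in ES_only and 3184 to 4155 CPM in control libraries. Compared with control, all 5 were called higher in injury mice, 4 in ES_only mice and 1 in injury_ES mice (edgeR). None of these markers was at 0 in all libraries. Fewer cells of a type and less RNA per cell cannot be told apart in whole ganglia, and the part of these shifts in the channel results was not tested.

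Levels were compared between genes per kilobase of own exon on the interval that carries each name, so the order holds only for these intervals. Kcnab2, an auxiliary beta subunit of Shaker-type potassium channels, stood highest at 1980.3 CPM per kb over the 12 libraries. This holds for the interval that carries its name, of which its own exon makes up 12.9% while reads of the whole interval were counted; a second Kcnab2 interval stood at 16.9 CPM per kb. Kcnab2 was followed by Kcnip3, a calcium-binding partner of A-type potassium channels, at 389.6 CPM per kb and by the proton-gated cation channel Asic1 at 345 CPM per kb. The sodium channels Scn1a and Scn8a stood at 244 and 135 CPM per kb, and the heat and capsaicin receptor Trpv1 at 80.2 CPM per kb. Piezo2, the touch channel, stood at 12.2 CPM per kb on the stretch counted. Other tested intervals stood at 56.6 and 34.7 CPM per kb for Scn1a, 40.1 and 4.58 for Scn8a, and 58.8 and 27.5 for Piezo2. Further intervals of Kcnip4 and Grik5 stood at 295 and 283 CPM per kb. Own exon made up 6.05% of the Kcnip3 interval and 11.4% of the Trpv1 interval. On the scale of the whole interval, 8 of the 57 genes were above 50 CPM, 28 between 5 and 50 CPM and 21 up to 5 CPM.

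**Figure D1:**
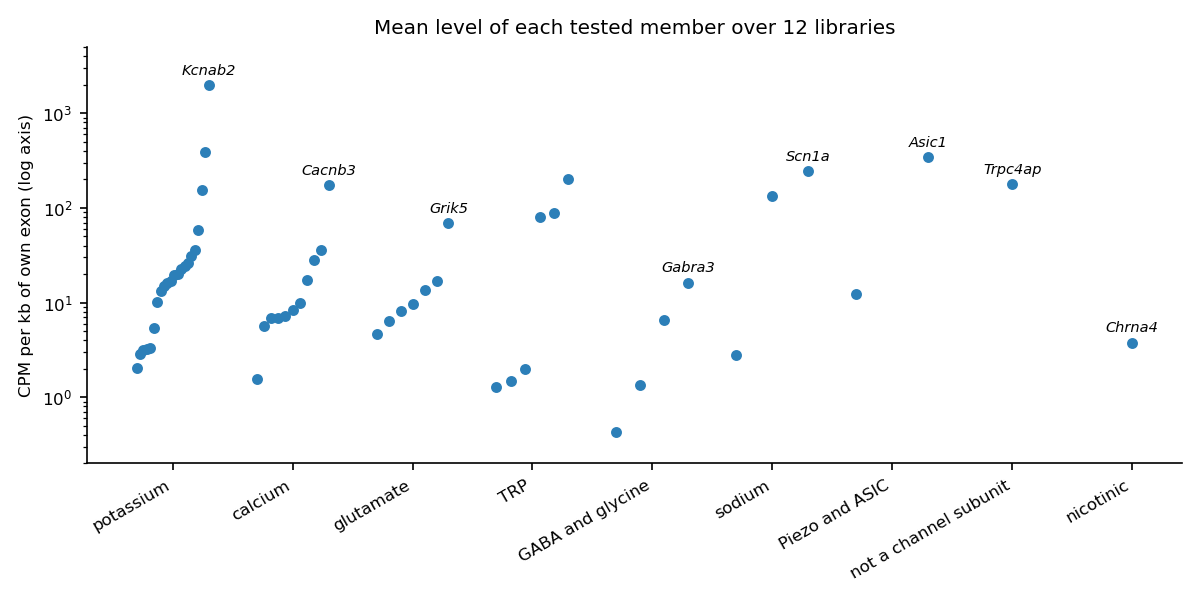
Mean level of each of the 57 tested genes over 12 libraries in CPM per kilobase of own exon, on a log axis, by family; each point is 1 gene, and a name marks the highest gene of each family but TRP. Kcnab2 at 1980.3 CPM per kb stands above all others drawn, on the interval that carries its name, and Asic1 reaches 345 CPM per kb.

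In 6 genes the level was called against the control group in each of the 3 treated groups, and these comparisons share the same 3 control libraries. Asic1, Cacng3, Cacng8, Kcnab2 and Trpm4 were higher in each, and Gria3 was lower in each. Over all features, 17.2%, 31.0% and 29.8% were called in injury_ES, injury and ES_only mice against control. The share of all features called in all 3 comparisons was not counted. RefSeq start windows (GRCm38.p6, 250 bases before to 50 after a start) were available for 4 of the 6, and those within 30 bases of a GENCODE M21 transcript start are shown. Whether these genes share a regulator was not tested. Capitals mark matches, on either strand, to GGGCGG (the GC box) and CCAAT (the CCAAT box); TGACGTCA, the cAMP response element, had no match in them.
Asic1, chr15:99691974-99692273, plus strand: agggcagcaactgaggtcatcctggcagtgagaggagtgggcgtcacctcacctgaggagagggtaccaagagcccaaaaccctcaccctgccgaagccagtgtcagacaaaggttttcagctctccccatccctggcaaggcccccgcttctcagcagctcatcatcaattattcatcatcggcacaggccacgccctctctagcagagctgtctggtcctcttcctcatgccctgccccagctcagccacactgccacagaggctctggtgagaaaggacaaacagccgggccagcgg
Kcnab2, upstream start, chr4:152477500-152477799, minus strand: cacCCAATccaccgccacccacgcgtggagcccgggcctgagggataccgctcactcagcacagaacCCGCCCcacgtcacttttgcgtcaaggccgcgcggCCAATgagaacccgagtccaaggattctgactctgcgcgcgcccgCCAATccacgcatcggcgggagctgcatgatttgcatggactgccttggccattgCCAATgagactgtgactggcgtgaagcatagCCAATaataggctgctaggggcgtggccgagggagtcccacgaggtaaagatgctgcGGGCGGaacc
Kcnab2, downstream start, chr4:152448806-152449105, minus strand: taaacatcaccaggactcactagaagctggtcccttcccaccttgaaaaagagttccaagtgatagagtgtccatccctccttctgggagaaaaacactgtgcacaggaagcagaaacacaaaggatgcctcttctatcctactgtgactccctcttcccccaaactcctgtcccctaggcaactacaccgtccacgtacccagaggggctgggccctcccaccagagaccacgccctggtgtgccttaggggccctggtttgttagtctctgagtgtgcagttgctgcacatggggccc
The upstream Kcnab2 window held 2 matches to GGGCGG and 5 to CCAAT, and the other 2 windows held none. Over all 32851 RefSeq windows of this length, 35.7% held GGGCGG, 37.4% held CCAAT and 1.79% held TGACGTCA. A match is only these letters in the window.

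Asic1 was counted on 107 noncoding exon bases (chr15:99700901-99701007, GRCm38). It was at 64.9, 28.2 and 57.2 CPM in injury_ES, at 32.2, 45.7 and 43.7 CPM in injury, at 42.4, 41.7 and 32.7 CPM in ES_only, and at 15.96, 17.6 and 20.1 CPM in control libraries. Every treated library was above every control library. Asic1 rose by 1.48 ± 0.25 (log2 fold change ± SE) in injury_ES, 1.18 ± 0.25 in injury and 1.118 ± 0.25 in ES_only mice against control, with adjusted p of 0.00457, 0.00305 and 0.00280 (edgeR quasi-likelihood test, Benjamini-Hochberg over 13053 features).

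Kcnab2 was at 2355, 1300.1 and 2119 CPM in injury_ES, at 1531, 1859.9 and 1738 CPM in injury, at 2131, 1995 and 1652 CPM in ES_only, and at 928, 1023 and 830.3 CPM in control libraries. The lowest treated library, injury_ES replicate 2, was above the highest control library. The log2 fold changes against control were 1.05 ± 0.20 in injury_ES, 0.88 ± 0.20 in injury and 1.05 ± 0.20 in ES_only mice, with adjusted p of 0.00481, 0.00435 and 0.00105 (edgeR). A second Kcnab2 interval, 221 bp of noncoding exon farther from the 3′ end and at 3.73 CPM, gave log2 fold changes of -0.62 in injury and 0.37 in ES_only mice, neither called. With trends in GC content and length removed, the injury call ended (adjusted p = 0.0596, edgeR).

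Cacng8 and Cacng3 encode transmembrane AMPA receptor regulatory proteins, auxiliary subunits that carry AMPA-type glutamate receptors to the membrane. Cacng8 was at 8.49, 7.93 and 7.68 CPM in injury_ES, at 10.3, 8.71 and 5.97 CPM in injury, at 9.63, 19.4 and 5.01 CPM in ES_only, and at 2.55, 2.96 and 2.11 CPM in control libraries. The groups did not overlap with control, and ES_only replicate 2 was the highest library. It rose by 1.66 ± 0.41, 1.71 ± 0.41 and 2.14 ± 0.41 on the log2 scale in injury_ES, injury and ES_only mice (edgeR, adjusted p of 0.0116, 0.00561 and 0.00105). Cacng3 averaged 8.26 ± 5.4 CPM in injury_ES, 8.91 ± 3.6 CPM in injury, 9.76 ± 2.7 CPM in ES_only and 3.39 ± 0.62 CPM in control libraries (SD, n = 3 each). Its log2 fold changes were 1.28 ± 0.42, 1.38 ± 0.42 and 1.52 ± 0.42 in injury_ES, injury and ES_only mice (edgeR, adjusted p of 0.0467, 0.0208 and 0.0114). In injury_ES replicate 2 it was at 4.07 CPM, below the highest control library at 4.10 CPM. Of 12 fits that left out 1 library, 8 ended the Cacng3 call in injury_ES mice and 3 that in injury mice (edgeR, adjusted p up to 0.359 and 0.109). The ES_only call on Cacng3 ended without ES_only replicate 2 (edgeR, adjusted p = 0.0677). With trends in GC content and length removed, Cacng3 was not called in injury_ES or injury mice (edgeR, adjusted p of 0.0753 and 0.0508). A shorter Cacng3 interval of 143 bp showed -0.22 in injury and 0.38 in ES_only mice, neither called.

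Trpm4, a calcium-activated cation channel, was counted on 264 bp of coding exon. It was at 33.8, 20.2 and 31.3 CPM in injury_ES, at 24.3, 29.7 and 23.9 CPM in injury, at 23.9, 23.0 and 25.4 CPM in ES_only, and at 16.4, 16.3 and 12.3 CPM in control libraries. No treated library overlapped the controls. It rose by 0.92 ± 0.20, 0.79 ± 0.20 and 0.69 ± 0.20 on the log2 scale in injury_ES, injury and ES_only mice (edgeR, adjusted p of 0.00729, 0.00831 and 0.0172). The ES_only call ended without control replicate 3, ES_only replicate 1 or ES_only replicate 2, with adjusted p of 0.0558 to 0.0890 (edgeR).

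Gria3, the GluA3 subunit of AMPA receptors, moved the other way. It was at 27.9, 33.0 and 32.1 CPM in injury_ES, at 26.7, 34.9 and 34.3 CPM in injury, at 19.6, 16.7 and 26.3 CPM in ES_only, and at 56.3, 52.7 and 49.0 CPM in control libraries. All 9 treated libraries were below all 3 controls. It fell by 0.76 ± 0.18, 0.72 ± 0.18 and 1.33 ± 0.18 on the log2 scale in injury_ES, injury and ES_only mice (edgeR, adjusted p of 0.00858, 0.00631 and 0.000129). With a trend over the distance of the counted bases from the 3′ end removed, the Gria3 difference was -0.37 in injury_ES and -0.26 in injury mice (edgeR, adjusted p of 0.141 and 0.271), whereas the ES_only call held.

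**Figure D2:**
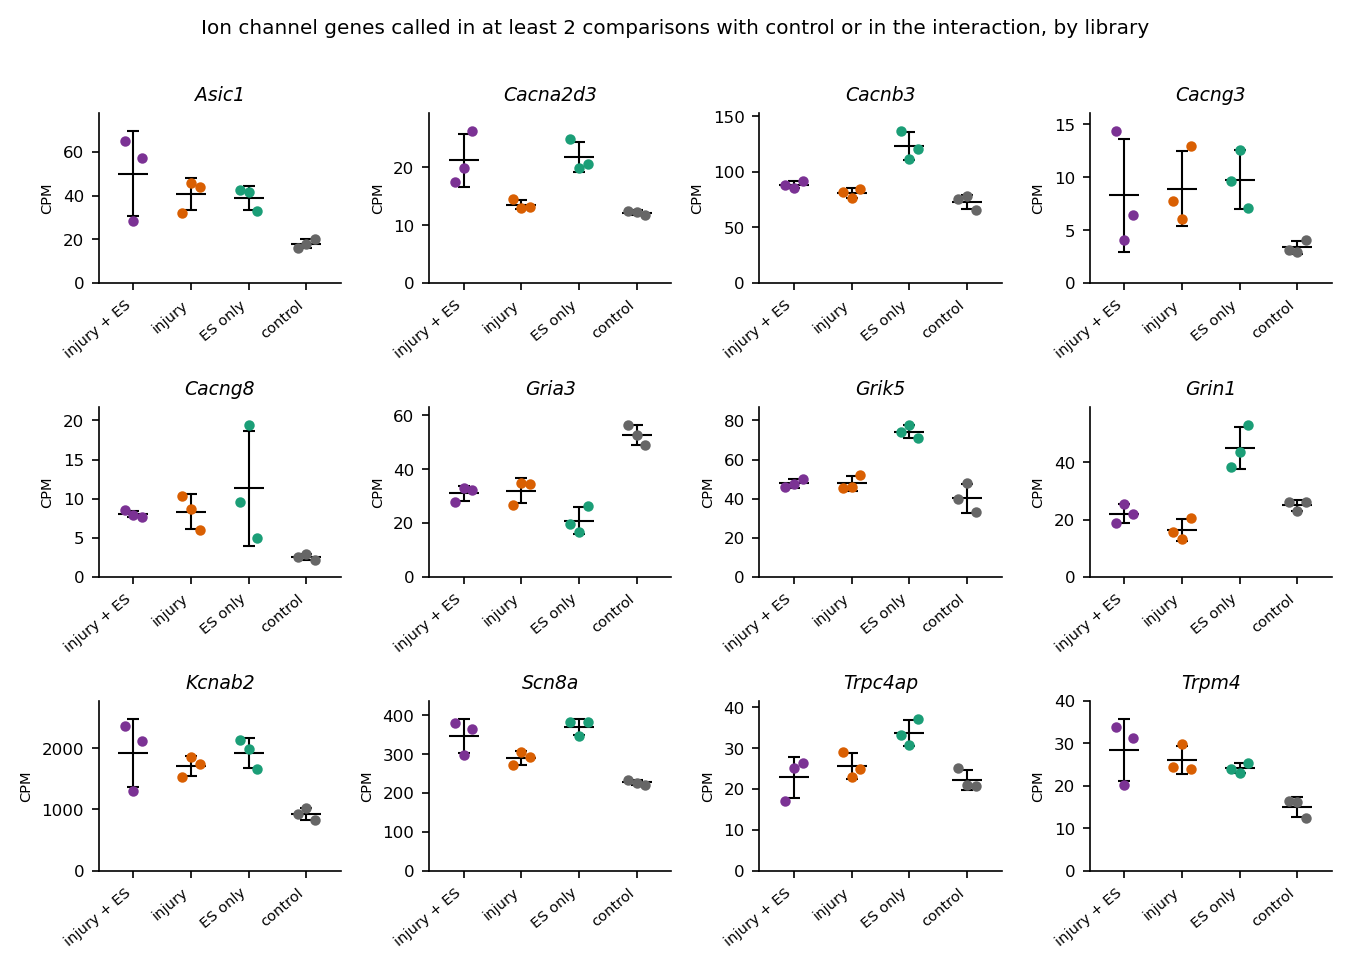
CPM of the 12 genes called in at least 2 comparisons with control or in the interaction; each point is 1 library, bars are the mean and SD of 3 libraries, and each axis starts at 0. Asic1, Cacng8, Kcnab2 and Trpm4 are above every control library in the other 3 groups, Gria3 is below, and Cacnb3, Grik5, Grin1 and Trpc4ap are highest in ES_only.

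Stimulation without a wound was set against no treatment. In ES_only mice 15 of 57 channel genes rose, where 18.2% of all 13053 features rose, and 2 of 57 fell, where 11.7% of all features fell. The 17 calls together stand beside 29.8% of all features. At an unadjusted p under 0.05 there were 22 channel genes, against 39.9% of all features. The libraries did not overlap in 18 genes that were higher and 7 that were lower, where 26.1% and 21.0% of all features did so. The median log2 fold change of the 57 was 0.46, against 0.03 over all features. Auxiliary subunits gave 6 higher calls and 1 lower among 12, and pore-forming subunits 8 higher and 1 lower among 44.

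Genes with the Cacn prefix gave 4 higher and no lower calls among 11. Cacng3 and Cacng8, which encode AMPA receptor auxiliary subunits, were among those higher. Cacnb3, the beta3 subunit that brings high-voltage-activated calcium channels to the membrane, was at 137, 112 and 121 CPM in ES_only and at 75.4, 77.9 and 65.9 CPM in control libraries. The groups did not overlap, with a log2 fold change of 0.75 ± 0.13 (edgeR, adjusted p = 0.000550). Cacna2d3, an alpha2delta subunit of the same channels, was at 24.8, 20.0 and 20.5 CPM in ES_only and at 12.5, 12.3 and 11.7 CPM in control libraries, a log2 difference of 0.84 ± 0.19 (edgeR, adjusted p = 0.00371). Pore subunits gave no call: Cacna1b, of N-type channels, was at 0.89 ± 0.36 (edgeR, adjusted p = 0.0687), and Cacna1c, of L-type channels, at -0.03 ± 0.17 (edgeR, adjusted p = 0.903).

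Among 7 glutamate receptor genes, 2 rose and Gria3 fell. Grik5, the high-affinity kainate receptor subunit, was at 73.9, 77.6 and 71.2 CPM in ES_only and at 39.7, 47.9 and 32.9 CPM in control libraries, without overlap (log2 fold change 0.89 ± 0.15, edgeR, adjusted p = 0.000441). A second Grik5 interval of 236 coding bases rose by 1.00 in ES_only mice, and also by 0.81 in injury_ES and 0.85 in injury mice (edgeR, adjusted p of 0.00105, 0.00912 and 0.00404), where the first interval was not called. Grin1, the subunit that every NMDA receptor needs, was at 38.4, 43.7 and 53.1 CPM in ES_only and at 26.3, 22.9 and 26.0 CPM in control libraries, a log2 difference of 0.85 ± 0.19 (edgeR, adjusted p = 0.00294). Gria2, the subunit that makes AMPA receptors impermeable to calcium, was at -0.96 ± 0.39 and not called (edgeR, adjusted p = 0.0746).

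Among 22 potassium channel genes, 4 rose and 1 fell. Kcnip3 was at 102, 81.6 and 92.6 CPM in ES_only and at 59.6, 54.7 and 34.6 CPM in control libraries (log2 fold change 0.89 ± 0.18, edgeR, adjusted p = 0.00183). The groups did not overlap. Kcnj11, the pore of ATP-sensitive potassium channels, was called higher by 1.60 ± 0.56 (edgeR, adjusted p = 0.0407), but its lowest ES_only library, at 1.51 CPM, was below the highest control library at 1.64 CPM. Kcnab1, the sister of Kcnab2, fell and was at 2.55, 4.52 and 3.98 CPM in ES_only and at 5.43, 8.08 and 8.55 CPM in control libraries (log2 fold change -0.99 ± 0.34, edgeR, adjusted p = 0.0353). Leaving out 1 library ended the Kcnab1 call in 4 of 12 fits, with adjusted p up to 0.134 (edgeR). Kcnip4, a relative of Kcnip3, was not called on the interval that carries its name (-0.63 ± 0.40, edgeR, adjusted p = 0.259), whereas its more abundant interval at 36.9 CPM gave -0.95 (edgeR, adjusted p = 0.00180). That more abundant interval was also lower in injury and injury_ES mice against control, at -0.94 and -0.66 (edgeR, adjusted p of 0.00293 and 0.0273). Its stimulation effect in wounded minus unwounded mice was 1.23 (edgeR, adjusted p = 0.00792).

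Scn8a, the sodium channel of nodes of Ranvier and axon initial segments, was at 383, 347 and 382 CPM in ES_only and at 233, 227 and 221 CPM in control libraries, a log2 difference of 0.71 ± 0.13 (edgeR, adjusted p = 0.00103). The groups did not overlap. Other tested Scn8a intervals, at 3.85 and 6.21 CPM, were at -0.23 and 0.76 and not called (edgeR, adjusted p of 0.717 and 0.129). Scn1a, on its interval near the 3′ end, differed by -0.12 ± 0.16 (edgeR, adjusted p = 0.620). Piezo2 was at 21.5, 27.8 and 24.8 CPM in ES_only and at 14.97, 17.1 and 11.9 CPM in control libraries (log2 fold change 0.75 ± 0.21, edgeR, adjusted p = 0.0130). The other 2 tested Piezo2 intervals were at 0.25 and 0.03 and not called, and the Piezo2 call ended without control replicate 3 or ES_only replicate 2 (edgeR, adjusted p of 0.0706 and 0.0858). Trpc4ap, whose product binds TRP channels and serves a ubiquitin ligase, rose by 0.60 ± 0.18 (edgeR, adjusted p = 0.0197), and by 0.84 on a second interval (edgeR, adjusted p = 0.00119). The first Trpc4ap call ended in 4 of 12 fits that left out 1 library. Trpv1 was at 27.7, 20.8 and 34.1 CPM in ES_only and at 23.9, 27.5 and 21.1 CPM in control libraries, which overlapped (log2 fold change 0.19 ± 0.22, edgeR, adjusted p = 0.553). Chrna4, a nicotinic receptor subunit, was at 4.99, 21.0 and 4.78 CPM in ES_only and at 5.54, 5.35 and 1.87 CPM in control libraries, with ES_only replicate 2 far above the rest, and was not called (1.25 ± 0.52, edgeR, adjusted p = 0.0810).

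GC content of the counted exon moved with the ES_only result. Over 10329 features, which are not independent, Spearman's rho of GC content with the log2 fold change against control was 0.51 in ES_only mice. The same rho was 0.30 in injury and 0.34 in injury_ES mice. Among the channel genes, the median GC content was 53.1% in the 15 that rose in ES_only mice, 39.2% in the 2 that fell and 50.7% in those not called. With trends in GC content and length removed, 12 of the 17 calls remained, and that fit called 12 genes higher and 1 lower, where 11% of its 10329 features were higher and 7.76% lower. Cacnb3 was at 0.37 in it, Kcnip3 at 0.60, Kcnab1 at -0.48 and Trpm4 at 0.42 (edgeR, adjusted p of 0.0751, 0.0550, 0.317 and 0.174). The call on Kcnj11 did not remain in it either. With the trend in 3′ distance removed, all 17 calls remained and 20 genes were called, where 34.4% of the 6121 features in that fit were called.

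**Figure D3:**
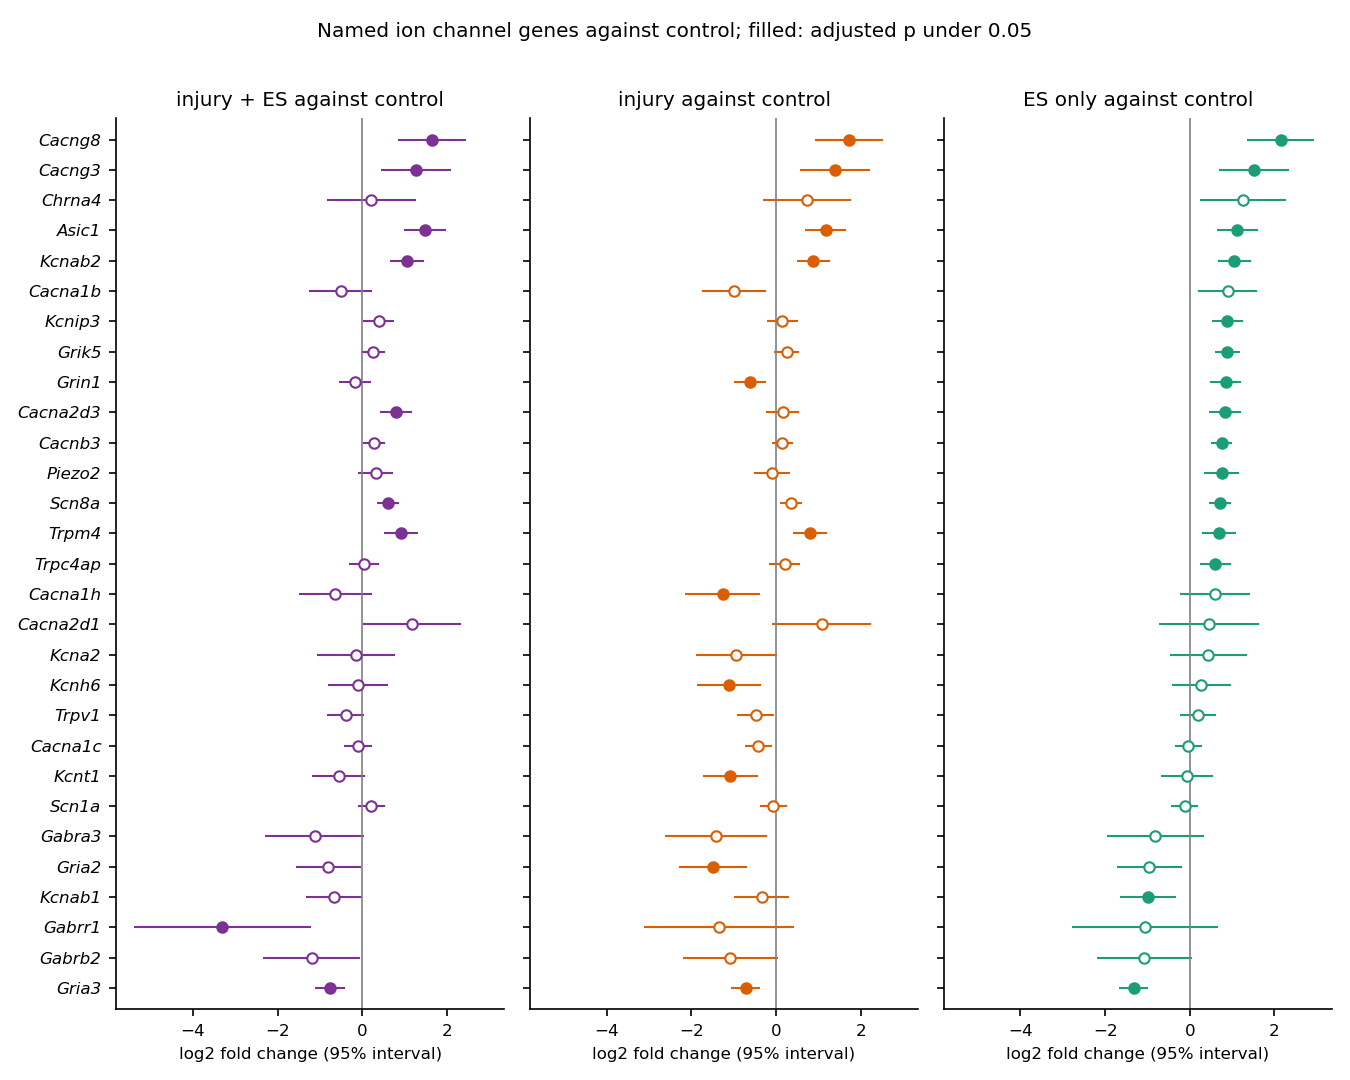
Log2 fold changes with 95% intervals of 29 named genes in injury_ES, injury and ES_only mice against the same 3 control libraries, sorted by the ES_only value; filled points passed an adjusted p of 0.05. ES_only has the most filled points to the right of 0, and Gria3 is left of 0 in all 3 panels.

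The injury group was set against control 2 weeks after the keratectomy. In injury mice 5 of 57 channel genes rose and 6 fell, where 19.3% of all features rose and 11.7% fell. The 11 calls together stand beside 31.0% of all features. At an unadjusted p under 0.05 there were 21 channel genes, against 42.4% of all features. The libraries did not overlap in 11 genes that were higher and 14 that were lower, where 28.8% and 23.8% of all features did so. The 5 that rose were Asic1, Cacng3, Cacng8, Kcnab2 and Trpm4, of which 3 are auxiliary subunits. All 6 that fell form pores: 3 of 7 glutamate receptor genes, 2 of 22 potassium channels and 1 of 11 genes with the Cacn prefix. Most tested genes do so too: 44 of the 57 form pores and 12 are auxiliary subunits. The median log2 fold change of the 57 was -0.09, against 0.03 over all features.

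Among the glutamate receptor genes, Gria2 fell and was at 2.99, 3.08 and 3.47 CPM in injury and at 9.98, 4.32 and 12.4 CPM in control libraries (log2 fold change -1.48 ± 0.41, edgeR, adjusted p = 0.0119). Grin1 fell and was at 15.6, 13.1 and 20.5 CPM in injury and at 26.3, 22.9 and 26.0 CPM in control libraries (-0.61 ± 0.20, edgeR, adjusted p = 0.0253). Neither overlapped between the groups. Without control replicate 3 the adjusted p was 0.0738 for Gria2 (edgeR). For Grin1 it was 0.0764 to 0.134 without control replicate 1, control replicate 3, injury replicate 1 or injury replicate 2 (edgeR).

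Kcnt1, a sodium-activated potassium channel, fell and was at 18.9, 8.60 and 15.1 CPM in injury and at 34.0, 30.8 and 24.8 CPM in control libraries (-1.08 ± 0.33, edgeR, adjusted p = 0.0202). Kcnh6, an ether-a-go-go related potassium channel, fell and was at 3.11, 2.87 and 2.92 CPM in injury and at 5.54, 9.67 and 4.10 CPM in control libraries (-1.12 ± 0.38, edgeR, adjusted p = 0.0365). Cacna1h, the pore of a T-type calcium channel, fell and was at 2.88, 4.57 and 1.11 CPM in injury and at 7.76, 6.48 and 6.68 CPM in control libraries (-1.26 ± 0.45, edgeR, adjusted p = 0.0437). None of the 3 overlapped between the groups. A second Cacna1h interval at 26.5 CPM gave -0.69 (edgeR, adjusted p = 0.0384). Another Cacna1h interval, at 1.79 CPM, gave 0.34 and was not called (edgeR, adjusted p = 0.689). Leaving out 1 control or injury library ended the calls on Kcnt1, Kcnh6 and Cacna1h in 4, 5 and 5 fits, with adjusted p up to 0.108, 0.218 and 0.160 (edgeR). For Kcnt1 these were control replicates 1 and 2 and injury replicates 2 and 3, for Kcnh6 control replicates 1 and 2 and each injury library, and for Cacna1h each control library and injury replicates 1 and 3. Trpv1 was at 17.0, 13.4 and 21.8 CPM in injury and at 23.9, 27.5 and 21.1 CPM in control libraries, which overlapped, with a log2 difference of -0.48 ± 0.22 that was not called (edgeR, adjusted p = 0.113).

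The place of the counted bases in the gene moved with the injury result. Over all features on a single protein-coding gene, the median log2 fold change of injury against control was 0.59 for 405 intervals under 500 exon bases from the 3′ end. It was 0.37 for 1618 intervals at 500 to 2000 bases and -0.29 for 3704 intervals beyond 2000 bases. For the channel genes it was 0.84 in 4 genes, 0.60 in 12 genes and -0.34 in 41 genes, and all 6 lower calls lay beyond 2000 bases. The same medians for ES_only against control over all features were 0.08, 0.16 and 0.03, and for injury_ES against control 0.31, 0.21 and -0.21.

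Of 18 channel genes with more than 1 tested interval, 9 had intervals of both signs after injury and 6 in ES_only mice. Scn1a was at -0.06 on 389 noncoding bases near its 3′ end, and at -2.13 and -1.65 on 190 and 208 coding bases farther upstream (edgeR, adjusted p of 0.00187 and 0.00351). Scn8a was at 0.35 on its main interval and at -1.0002 and -0.36 on 2 intervals farther upstream, none called (edgeR, adjusted p of 0.0533, 0.0605 and 0.537). Piezo2 did not follow the order of distance: its intervals nearer the 3′ end were at -2.04 and -1.22 (edgeR, adjusted p of 0.00185 and 0.00387) and the farthest was at -0.09. RNA quality values per library were not used here, and their part was not tested.

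**Figure D4:**
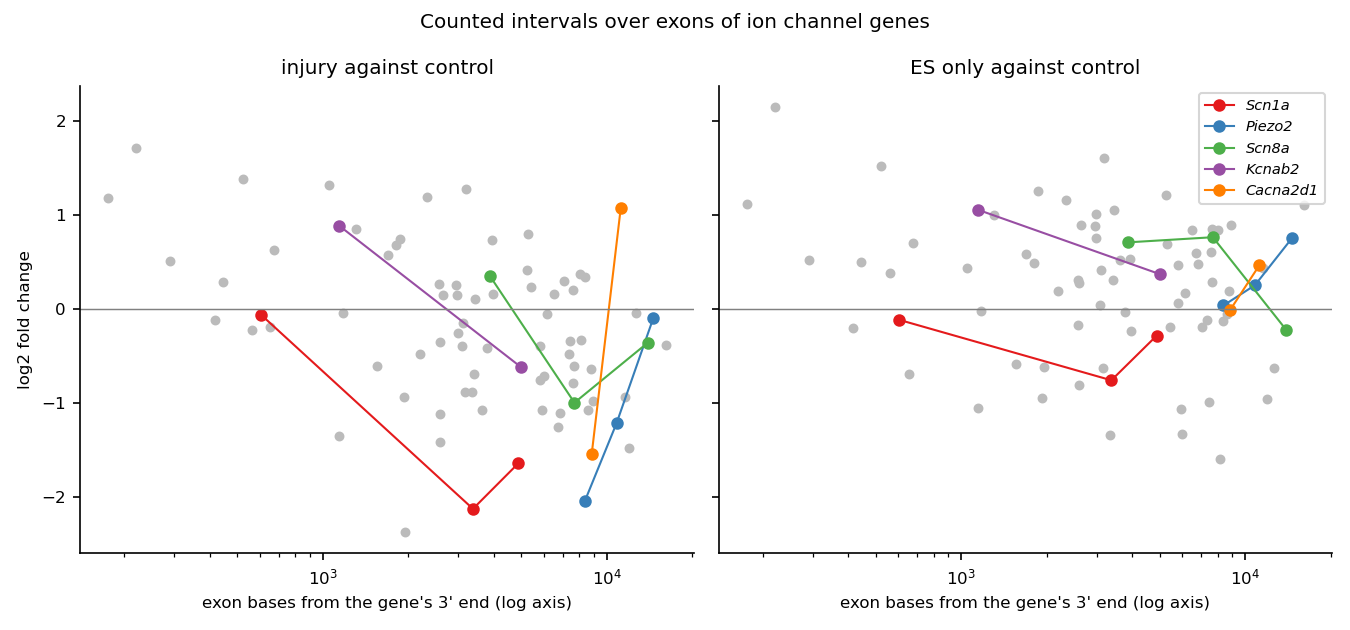
Log2 fold change of injury (left) and ES_only (right) against control for 80 tested intervals over channel genes, against the number of exon bases between the middle of the counted bases and the 3′ end, on a log axis. Coloured lines join the intervals of Scn1a, Piezo2, Scn8a, Kcnab2 and Cacna2d1. Because of its large fold change, 1 Trpv3 interval at a mean of 0.611 CPM, and 0 CPM in control libraries, is not drawn. It was at 6.42 in injury and 5.55 in ES_only mice (edgeR, adjusted p of 0.0112 and 0.0283). After injury most intervals beyond 2000 bases lie below 0, and the 3 Scn1a intervals run from -0.06 to -2.13.

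Removing the trend with 3′ distance changed which channels were called after injury. That fit, chosen after seeing the data and run over 6121 intervals, called 8 channel genes higher and 4 lower, where 15.4% of its features were higher and 11.4% lower. It kept 5 of the 11 calls. Asic1, Cacng8, Kcnab2 and Trpm4 remained higher and Kcnh6 remained lower. Gria2, Gria3, Grin1, Kcnt1, Cacna1h and Cacng3 were not called in it, with adjusted p of 0.0589 to 0.712 (edgeR). Among the genes called in that fit only, Scn8a was at 0.61 (edgeR, adjusted p = 0.0145). Scn1a was at -0.50 (edgeR, adjusted p = 0.0133).

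In injury_ES mice, compared with control, 7 of 57 channel genes rose and 2 fell, where 12.3% of all features rose and 4.93% fell. The 9 calls together stand beside 17.2% of all features. At an unadjusted p under 0.05 there were 13 channel genes, against 31.7% of all features. The libraries did not overlap in 7 genes that were higher and 7 that were lower, where 17.6% and 15.2% of all features did so. The median log2 fold change of the 57 was 0.02, against -0.02 over all features.

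Besides the 6 genes called in each treated group, Scn8a was at 379, 297 and 364 CPM in injury_ES and at 233, 227 and 221 CPM in control libraries, without overlap (log2 fold change 0.61 ± 0.13, edgeR, adjusted p = 0.00696). Other tested Scn8a intervals were at -0.41 and -0.28 and not called (edgeR, adjusted p of 0.537 and 0.664). Cacna2d3 was at 17.5, 19.8 and 26.2 CPM in injury_ES and at 12.5, 12.3 and 11.7 CPM in control libraries (0.80 ± 0.19, edgeR, adjusted p = 0.0107). Gabrr1, a GABA receptor rho subunit, was at 0, 0.214 and 0.354 CPM in injury_ES and at 3.66, 0.910 and 1.52 CPM in control libraries, with 5 reads in all in injury_ES (-3.31 ± 1.07, edgeR, adjusted p = 0.0418). Without injury_ES replicate 3 none of the 57 was called, and over all 13845 features 11 were called, or 0.0795%. In that fit the 9 genes had adjusted p of 0.0517 to 0.100 (edgeR). Their log2 fold changes in it kept their direction, such as 1.35 for Asic1, 0.95 for Kcnab2, 0.55 for Scn8a, -0.82 for Gria3 and -4.04 for Gabrr1. The calls on Cacng8, Cacna2d3, Cacng3 and Gabrr1 also ended without control replicate 3 (edgeR, adjusted p of 0.0611, 0.0505, 0.0904 and 0.0845). Without injury_ES replicate 2, 11 of the 57 were higher and 9 lower, where 17.2% of 13775 features were higher and 14.4% lower.

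Stimulation after a wound was set against the wound alone. In injury_ES mice, compared with injury mice, none of the 57 channel genes was called by edgeR, where 0.0383% of all features rose and 1.5% fell, 1.54% together. At an unadjusted p under 0.05 there were 5 of 57, against 12.2% of all features. DESeq2 called 1, Cacna2d3, at 0.69 (adjusted p = 0.0372). The libraries did not overlap in 7 genes that were higher and 1 that was lower, where 5.15% and 10.1% of all features did so. The median log2 fold change of the 57 was 0.11, against 0.00 over all features.

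Cacna2d3 was at 17.5, 19.8 and 26.2 CPM in injury_ES and at 14.5, 13.0 and 13.2 CPM in injury libraries, without overlap, with a log2 difference of 0.64 ± 0.19 that edgeR did not call (adjusted p = 0.134). Kcnh6 was at 6.72, 6.00 and 5.32 CPM in injury_ES and at 3.11, 2.87 and 2.92 CPM in injury libraries, also without overlap (1.02 ± 0.39, edgeR, adjusted p = 0.273). Scn8a was at 379, 297 and 364 CPM in injury_ES and at 271, 305 and 294 CPM in injury libraries, which overlapped (0.26 ± 0.13, edgeR, adjusted p = 0.469). Trpv1 was at 14.7, 19.9 and 20.6 CPM in injury_ES and at 17.0, 13.4 and 21.8 CPM in injury libraries (0.09 ± 0.23, edgeR, adjusted p = 0.932), and these overlapped too.

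The effect of stimulation in wounded mice minus its effect in unwounded mice was tested as an interaction, which uses each of the 4 groups. Of the 57 channel genes 1 was higher and 5 were lower, where 6.86% of all features were higher and 12.3% lower, 19.2% together. With median-of-ratios scaling 2 were higher and 2 lower, where 8.27% of all features were higher and 8.99% lower. At an unadjusted p under 0.05 there were 13 channel genes, against 33.4% of all features. Cacng8 differed by -2.20 ± 0.55, Grik5 by -0.88 ± 0.21, Kcnab2 by -0.88 ± 0.28, Trpc4ap by -0.76 ± 0.26 and Cacnb3 by -0.62 ± 0.18 on the log2 scale (edgeR, adjusted p of 0.0134, 0.00982, 0.0371, 0.0494 and 0.0264). In these 5 genes the log2 effect of stimulation was -0.16 to 0.17 with a wound and 0.60 to 2.14 without. Gria3 differed by 1.29 ± 0.25 (edgeR, adjusted p = 0.00400), at -0.04 ± 0.18 with a wound and -1.33 ± 0.18 without. Grin1 was not called (-0.41 ± 0.27, edgeR, adjusted p = 0.308). The summed sensory neuron markers stood higher in all 3 treated groups than in control, and the myelinating Schwann cell, oligodendrocyte, fibroblast and macrophage sums were highest in the injury libraries, which enter this difference; their part was not tested.

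**Figure D5:**
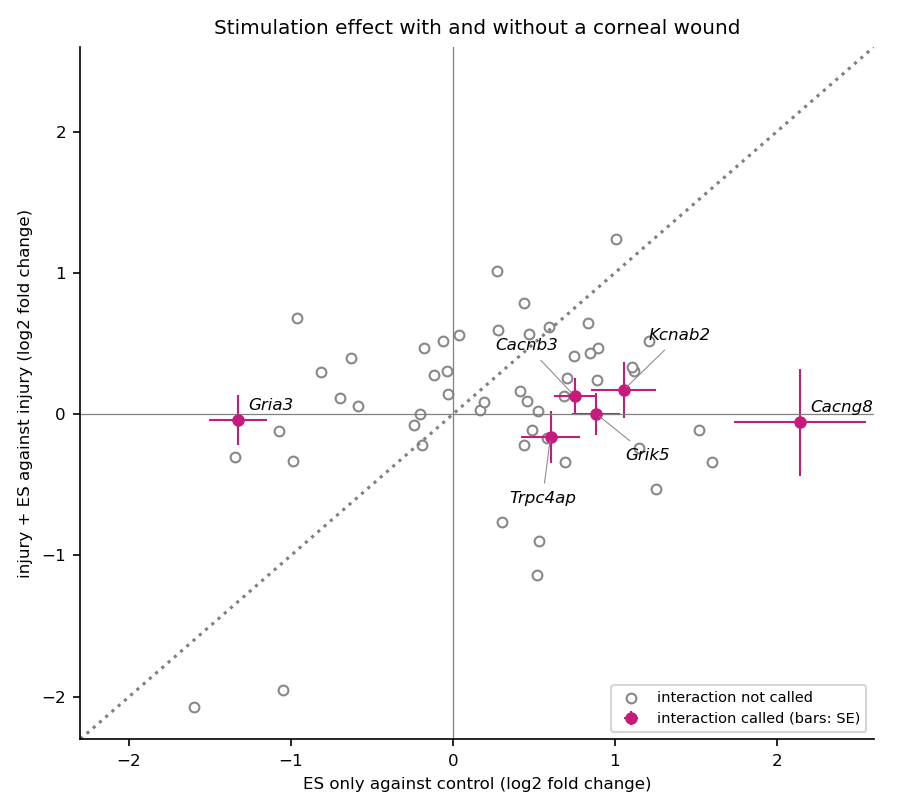
Log2 fold change of injury_ES against injury (vertical) and of ES_only against control (horizontal) for the 57 tested genes, 2 comparisons that share no library; filled points passed the interaction test and carry SE bars, and the dotted line marks equal effects. The 6 filled genes lie near 0 on the vertical axis, while Cacng8 reaches 2.14 and Gria3 -1.33 on the horizontal axis.

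Several sensory channels were called in none of the 5 comparisons on the interval that carries their name. Trpv1, Scn1a, Cacna1b, Cacna1c, Cacna2d1 and Kcna2 were among them. Scn1a averaged 109 ± 16 CPM in injury_ES, 89.9 ± 6.5 CPM in injury, 86.5 ± 16 CPM in ES_only and 93.9 ± 12 CPM in control libraries (SD, n = 3 each). Other tested Scn1a intervals, lower after injury as given above, were also lower in injury_ES mice against control. These were at -1.35 and -1.17 (edgeR, adjusted p of 0.0236 and 0.0297). Cacna1c was at -0.41 ± 0.17 (edgeR, adjusted p = 0.0700) in injury mice. None of the 4 GABA receptor genes was called after injury or after stimulation alone, with median log2 fold changes of -1.22 in injury and -0.93 in ES_only mice, at levels of at most 6.27 CPM in any library. Gabra3, an alpha subunit, was at -1.42 ± 0.61 (edgeR, adjusted p = 0.0868) in injury mice and Gabrb2, a beta subunit, at -1.08 ± 0.58 (edgeR, adjusted p = 0.165). Cacna2d1, the alpha2delta subunit bound by gabapentin, was at 1.08 ± 0.59 (edgeR, adjusted p = 0.178) in injury mice on 238 noncoding bases, and at -1.55 on 129 coding bases (edgeR, adjusted p = 0.0256).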

How the data were processed

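Poly(A) RNA of 12 trigeminal ganglion libraries was sequenced as 150-base pairs, per the labels' protocols. The deposited values are raw counts, made with featureCounts 2.0.6 on Ensembl 110 gene models of GRCm39 without strand and counting single reads, per the file headers; the submitters' processing notes also list FastQC, Salmon 1.10.2 and DESeq2. Aligner version and alignment build: not given in the sources used here. Without strand, reads of overlapping genes on opposite strands cannot be told apart.

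Each counted interval was named by the only GENCODE M21 gene (GRCm38) whose exons it covered by at least 100 bp. The counts were fitted once over all 12 libraries with edgeR 4.0.16 (filterByExpr, TMM, robust quasi-likelihood, R 4.3.3) on 13053 features, with Benjamini-Hochberg adjustment and a threshold of 0.05. The injury, injury_ES and ES_only comparisons with control share the same control libraries. Scripts were tested on simulated data. Named genes are a panel of 38 sensory channels, the 8 most significant calls per direction without overlap and at 1 CPM or more, and the 2 most abundant per family; Kcnj11, Kcnip4 and Trpv3 were named after their values were seen. Members and lists were chosen with earlier results of these data known. Alternatives included DESeq2 1.42.0, other scaling and filters, and left-out libraries; the fits on 3′ distance were added after seeing the data. Results on a few genes are not reported here.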

Additional observations from a re-analysis of the deposited data

Results flagged for a closer look

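In 6 genes the effect of stimulation differed between wounded and unwounded mice by the interaction test of edgeR. The difference was -2.20 on the log2 scale for Cacng8, -0.88 for Grik5, -0.88 for Kcnab2, -0.76 for Trpc4ap, -0.62 for Cacnb3 and 1.29 for Gria3. Gria3 was called in each of the 12 fits that left out 1 library. The Cacng8 call ended without ES_only replicate 2 (adjusted p = 0.0642, edgeR), where that library was the highest, and the Grik5 call without ES_only replicate 1 or 2 (adjusted p of 0.05005 and 0.0573, edgeR). The calls on Kcnab2, Cacnb3 and Trpc4ap ended in 8, 9 and 12 of the 12 fits. With trends in GC content and length removed, Grik5, Kcnab2 and Cacnb3 were not called (adjusted p of 0.133, 0.474 and 0.317, edgeR), and over 10329 features GC content had a Spearman's rho of -0.45 with this difference, across genes, which are not independent. With median-of-ratios scaling Kcnab2, Cacnb3 and Trpc4ap were not called (adjusted p of 0.0683, 0.0545 and 0.0733, edgeR). Gria3 was not called in 2 of 9 other settings and Cacng8 in 1 of 9, with adjusted p up to 0.0735 and 0.0527 (edgeR). Second intervals of Grik5 and Trpc4ap were at -1.03 and -0.97 (adjusted p of 0.0149 and 0.00988, edgeR), and that of Kcnab2 at 0.28 was not called.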

How the results depend on the processing

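Of 155 results on single genes, 42 were called and 16 of these were called in every fit that left out 1 library. Over 3328 alternative values, 3094 kept their side of the threshold, 161 were no longer called and 73 became called. Among the 3328, 136 values that were not called changed sign, and no called value changed direction. Counts of called channel genes, out of 57 unless another filter applied, moved by more than 1.5 times as follows. For injury against control there were 20 (7 higher, 13 lower) in place of 11 when only those groups were fitted, where 23.3% of 11950 features were higher and 21.9% lower. For ES_only against control there were 11 in place of 17 with at least 300 bp of exon, where only 40 genes were tested, and 11 with GC and length trends removed in a replicate block, where 13.9% of all features were called. For the interaction there were 3 in place of 6 with GC and length trends removed, 1 with the replicate block added and 2 with GC, length and 3′ distance trends removed, where 6.58%, 3.91% and 10.5% of all features were called. For injury_ES against injury DESeq2 called 1 and 338 features in all. The cause of these moves, other than fewer genes tested, was not tested. Leaving out 1 library gave 6 to 18 calls for injury against control (17.9% to 35.2% of all features), 0 to 0 for injury_ES against injury (0.0361% to 2.47%), 12 to 19 for ES_only against control (19.1% to 33.3%), 0 to 20 for injury_ES against control (0.0795% to 31.6%) and 1 to 9 for the interaction (8.14% to 24.9%). The injury count was lowest without control replicate 1 (19.9% of all features), was 7 without control replicate 2 and was highest without injury_ES replicate 2. The injury_ES count against control was lowest without injury_ES replicate 3 and highest without injury_ES replicate 2. The interaction count was 1 without ES_only replicate 2, 2 without ES_only replicate 1, and 3 without control replicate 1, injury replicate 3 or injury_ES replicate 3. With the trend in 3′ distance removed, 8 higher and 4 lower genes were called after injury in place of 5 and 6. Same-numbered libraries did not deviate together (18 pairs, r of -0.26 to 0.20), and different-numbered pairs reached -0.39 and 0.44. With deviations taken from means of 3 libraries, this cannot exclude a batch shared by number. The main fit did not pair the libraries. A replicate block gave 10 calls for injury against control, 0 for injury_ES against injury, 16 for ES_only against control, 7 for injury_ES against control and 4 for the interaction, where 27.6%, 1.2%, 27.1%, 13.8% and 14.7% of all features were called.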

Other observations

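Pumps, exchangers, other channels and channel partners were counted beside the channels, from a list of 81 genes of which 35 were tested. In ES_only mice, compared with control, 10 rose and 1 fell, where 18.2% of all features rose and 11.7% fell. Dlg4, the postsynaptic scaffold PSD-95, rose by 1.34 ± 0.19 (edgeR, adjusted p = 0.000180), and Ano3, an anoctamin, was at -1.35 ± 0.26 (edgeR, adjusted p = 0.00104). In injury mice, compared with control, 8 rose and 8 fell, where 19.3% of all features rose and 11.7% fell, with Ano3 at -1.51 ± 0.26 (edgeR, adjusted p = 0.00124). In injury_ES mice, compared with control, 4 rose and 3 fell, where 12.3% of all features rose and 4.93% fell. In injury_ES mice, compared with injury mice, 1 rose and 1 fell, where 0.0383% of all features rose and 1.5% fell; Adam22, a partner of axonal potassium channels, was the one that rose, at 0.72 ± 0.15 (edgeR, adjusted p = 0.0235). The interaction gave 3 higher and 6 lower, where 6.86% and 12.3% of all features were so, with Dlg4 at -1.21 ± 0.27 (edgeR, adjusted p = 0.00721).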
